A study of Mus musculus with 6 samples.

Results

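The genes described here are 9 surface markers by which stem cells and multipotent progenitors of mouse bone marrow are told apart, Thy1, Ly6a, Slamf1, Procr, Esam, Cd34, Cd48, Cd27 and Cd9. They were chosen by symbol in the array annotation, and for each the brightest probeset carrying that symbol alone was taken. Of the 9 listed genes 8 were measured in this way, among 19938 genes in all. Ly6a, which encodes the Sca-1 antigen, was not listed under its own symbol in the annotation used and is not analysed here.

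The series compared cells given a lentivirus for mouse HLX (pCAD-HLX-IRES-GFP) with cells given the control lentivirus (pCAD-IRES-GFP), on 3 Affymetrix arrays per vector. HLX is a homeobox transcription factor, one that binds DNA through a homeodomain. Both groups began as marrow cells of young adult wild-type FVB/nJ mice that had been sorted as Kit-positive and Sca-1-positive without lineage antigens. All were exposed to virus and 8 µg/ml polybrene, grown for 2 days with serum and the mouse cytokines stem cell factor, IL-6 and IL-3, and then sorted for GFP. RNA came from 5000 to 10000 sorted cells per sample. The labels do not say whether replicates 1 to 3 of a vector were separate mice or cultures, so a p-value reflects only how far these samples spread, which could be technical.

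The lineage-negative, Kit-positive, Sca-1-positive gate holds long-term stem cells together with short-term stem cells and several kinds of multipotent progenitor, and the markers below subdivide it. In the mouse, Slamf1 (CD150), Procr (the endothelial protein C receptor), Esam and low levels of Thy1 are used to enrich long-term stem cells, and Cd9 is also carried by them. Cd48, a partner of the receptor CD244, and Cd27, a receptor of the TNF receptor family, mark multipotent progenitors more than the most primitive cells. Cd34, a sialomucin, is scarce on adult long-term stem cells and appears as they become short-term stem cells and progenitors. These gates are read as protein on single cells, whereas the arrays gave transcript levels of a whole sorted sample 2 days after the sort for Kit and Sca-1. In such bulk samples fewer cells of a type and less RNA per cell cannot be told apart.

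The markers did not all move in the same direction between the vectors, and no test of them as a set was run. Of the 8 measured genes 2 were higher and 6 lower with HLX, and 0 passed limma at an adjusted p under 0.05. Over all 19938 genes that count was also 0, or 0%, and the smallest adjusted p was 0.0782. At an unadjusted p under 0.05 stood 2 of the 8 members, Thy1 and Cd9, both higher, against 4.8% of all genes, or 2.44% on the higher and 2.36% on the lower side. After median centring of the arrays the genes at that p split into 623 higher and 356 lower, in place of 487 and 471. The groups did not overlap in Thy1, where HLX was higher, and in Cd27, where it was lower, against 9.19% of all genes (4.34% higher and 4.85% lower). The median log2 difference of the 8 members was -0.13, beside -0.0078 over all genes. Without HLX replicate 2 that median was 0.0028, and without control replicate 1 it was -0.041.

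**Figure D1:**
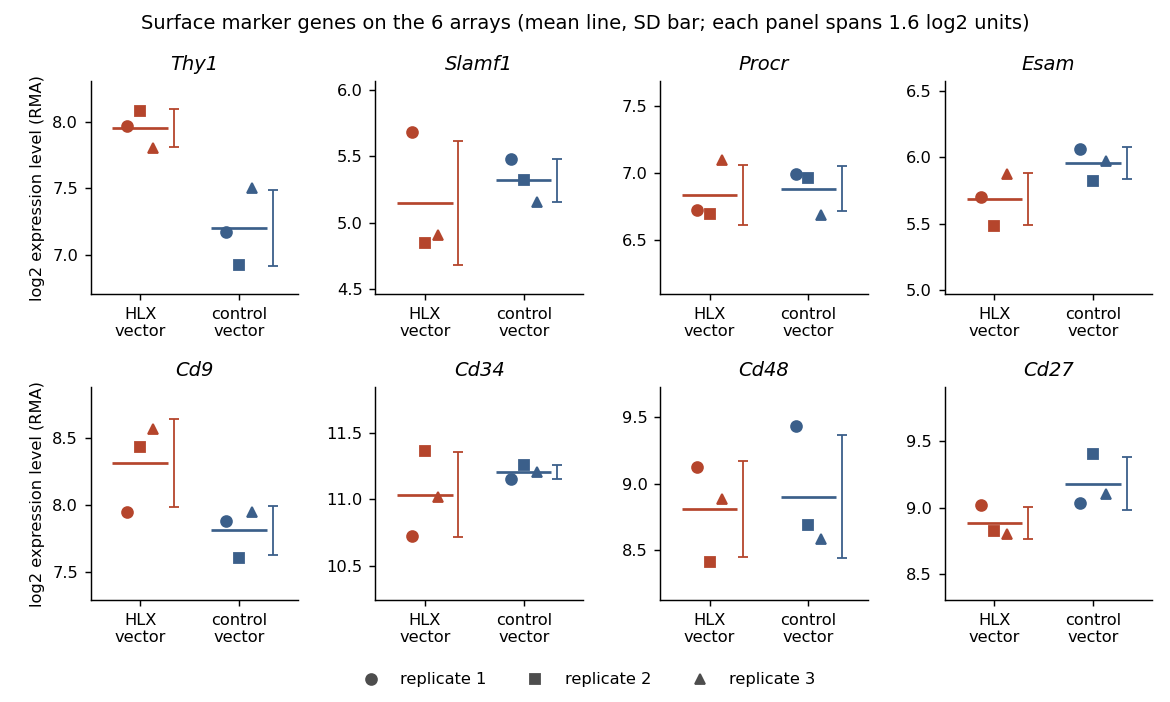
Log2 expression level (RMA) of the 8 measured surface markers on each array, HLX vector on the left and control vector on the right of every panel. Symbols give the replicate number, the horizontal line the mean and the bar the SD of 3 arrays. All 3 HLX arrays lie above all 3 control arrays for Thy1 and below them for Cd27, and the groups overlap in the other 6 panels.

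Before the markers, the targeted gene and the gate were examined. Hlx had log2 levels of 10.75, 9.74 and 10.28 in HLX arrays 1 to 3, against 6.99, 7.29 and 7.62 in control arrays 1 to 3. Every HLX array was far above every control array. Its adjusted p from limma was 0.0782, so even the transduced gene was not called at this sample size. Kit, the receptor for stem cell factor and the positive marker of the gate, was at 9.59, 9.58 and 9.31 with HLX and at 9.20, 9.50 and 9.53 with control. These ranges overlapped, and the difference of 0.09 ± 0.13 (SE, n = 3 per group) had a 95% interval from limma of -0.22 to 0.40. Of 14 measured genes for antigens commonly stained in lineage panels, 3 had a mean level above the median of all probesets, Cd5, Cd8a and Itgam. The labels do not name the lineage antibodies that were used. Itgam, an integrin subunit of myeloid cells, was at 7.24, 6.91 and 6.72 with HLX against 6.49, 5.72 and 5.99 with control, with no overlap and an adjusted p from limma of 0.901. It was the 1 gene of that panel at an unadjusted p under 0.05, and the other 13 differed by -0.20 to 0.32. The part of Itgam-positive cells in the marker differences below was not tested.

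Thy1, a small glycoprotein anchored in the membrane by a lipid, gave the largest difference of the 8 markers. Its log2 level was 7.97, 8.08 and 7.80 in HLX arrays 1 to 3, against 7.17, 6.93 and 7.50 in control arrays 1 to 3. Every HLX array was above every control array, and HLX replicate 3, the lowest of its group, was 1.23-fold above control replicate 3, the highest of the controls. The difference was 0.75 ± 0.16 (SE, n = 3 per group), which is 1.68-fold, with a 95% interval of 1.29- to 2.18-fold and an adjusted p from limma of 0.839. The exact permutation test over arrays, 2-sided, gave p = 0.1, and no smaller p is possible with 3 arrays a group. Thy1 stayed higher in all 17 alternative fits, between 0.61 without control replicate 2 and 0.90 without control replicate 3. Several of these fits could change only the p and not the difference. In size its difference stood at the 99.4th percentile of all genes, and Hlx itself, at 2.95, was the largest.

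T cells and some innate lymphoid cells also carry Thy1, so their genes were read beside it. Of 14 measured T cell genes 0 were at an unadjusted p under 0.05, 5 were higher with HLX and 9 lower, and they differed by -0.17 to 0.14. The summed linear level of these 14 genes was 1087 to 1256 in HLX arrays and 1172 to 1300 in control arrays. Cd3e, a subunit of the T cell receptor complex, was at 6.27 ± 0.18 with HLX and 6.33 ± 0.07 with control (SD, n = 3), below the median of all probesets in its mean. Cd3d and Cd3g, further subunits, averaged 5.08 and 4.50 with HLX and 5.06 and 4.45 with control. Of the 14 genes 9 had a mean level below the median of all probesets and 5 above it. Those above it were Cd6, Bcl11b, Cd8a, Cd5 and Lat, and Lat averaged 8.52 with HLX and 8.65 with control. The part of T cells in the Thy1 values was not tested. Of 13 NK and innate lymphoid genes 0 were at an unadjusted p under 0.05, and the median difference was -0.076. Id2, an inhibitor of transcription factors that is also active in myeloid cells, was furthest from 0 among them at 1.01 ± 0.51 (SE). At that p 1 of the 13 genes was higher without HLX replicate 1, without both arrays numbered 1 and with the replicate number as a block.

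Cd9, a tetraspanin found on stem cells and on the megakaryocyte line, was the other marker above its controls. Its log2 level was 7.95, 8.43 and 8.57 in HLX arrays 1 to 3, against 7.88, 7.60 and 7.95 in control arrays 1 to 3. HLX replicates 2 and 3 stood above every control array, while HLX replicate 1 lay just below control replicate 3, so the groups overlapped. The difference was 0.50 ± 0.18 (SE, n = 3 per group), or 1.42-fold with a 95% interval of 1.06- to 1.90-fold, and the adjusted p from limma was 0.975. Without HLX replicate 1 it was 0.69, and without HLX replicate 3 it was 0.38. Its unadjusted p was under 0.05 in 3 of the 6 fits that left out 1 array.

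Megakaryocyte and platelet genes were read beside Cd9. Of 9 measured genes of that line 0 were at an unadjusted p under 0.05, and 4 were higher and 5 lower with HLX. Without HLX replicate 1, or without both arrays numbered 1, there was 1 gene at that p, higher with HLX. The summed linear level of the 9 genes was 1410 to 1731 in HLX arrays and 1243 to 2692 in control arrays. Control replicate 1 was the highest and control replicate 2 the lowest. Pf4, a platelet chemokine, accounted for much of that range, at 9.62, 9.42 and 8.26 in HLX arrays against 10.73, 8.74 and 9.40 in control arrays. Itga2b, the integrin subunit of that line (CD41), differed by 0.37 ± 0.26 (SE). Of 12 mast cell and basophil genes, another line with Cd9, 0 were at an unadjusted p under 0.05 and 9 were lower with HLX. Without control replicate 3, 2 of the 12 were at that p, both lower with HLX. Control replicate 1 stood apart in this list: Cpa3, a mast cell protease, was at 4.96, 4.77 and 4.85 in HLX arrays 1 to 3, against 7.47, 4.99 and 5.10 in control arrays 1 to 3. Mcpt8, a protease of basophils, was at 6.60 in that array and at 5.86 and 5.01 in the other controls.

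Among the other 22 measured tetraspanins, membrane proteins that cluster integrins and signalling receptors, 3 were at an unadjusted p under 0.05 and all 3 were higher with HLX. That is 13.6% of them, against 2.44% of all genes on the higher side, and the median difference of the 22 was 0.013. Tspan32 was at 8.38, 7.91 and 8.04 with HLX against 7.38, 7.67 and 7.07 with control, a difference of 0.74 ± 0.18 (SE). It did not overlap between the vectors, like Tspan3, which differed by 0.45 ± 0.16. Cd82, a tetraspanin of dormant stem cells in the mouse, was at 10.86, 11.04 and 11.28 with HLX against 10.46, 10.35 and 10.95 with control, where HLX replicate 1 fell within the control range. Adjusted p from limma was 0.901 for Tspan32, 0.991 for Tspan3 and 0.9999 for Cd82, so none was called. With 1 array left out, 1 or 2 of the 22 genes were higher at an unadjusted p under 0.05, and 1 was lower without HLX replicate 2 or control replicate 2.

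**Figure D2:**
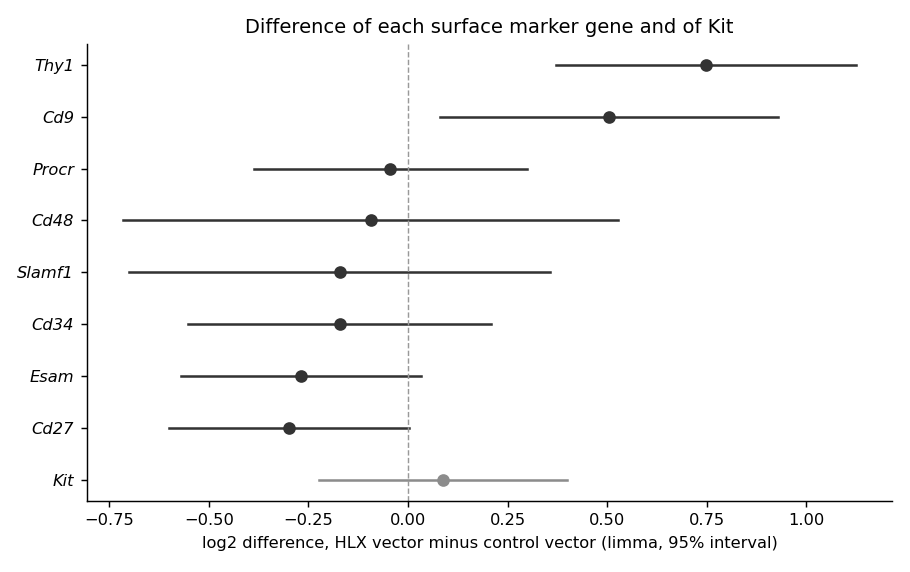
Log2 difference, HLX vector minus control vector, of the 8 measured surface markers and of Kit, with the 95% interval from limma (n = 3 arrays per group). The intervals of Thy1 and Cd9 lie above 0, and those of the other 6 markers and of Kit include 0.

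The remaining markers of long-term stem cells lay at or below their controls. Esam, an adhesion molecule shared by stem cells and endothelium, had log2 levels of 5.70, 5.48 and 5.87 with HLX, against 6.06, 5.82 and 5.97 with control. HLX replicate 3 lay above control replicate 2, and the other HLX arrays lay below all controls. The difference was -0.27 ± 0.13 (SE, n = 3 per group), 1.20-fold lower, with an adjusted p from limma of 0.9999 and a fold interval of 0.67 to 1.02.

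Slamf1, a receptor that binds its own kind and the key marker of the SLAM gate, was at 5.68, 4.85 and 4.91 with HLX, against 5.48, 5.32 and 5.15 with control. HLX replicate 1 was the highest of the 6 arrays and HLX replicates 2 and 3 were the lowest, so the difference of -0.17 ± 0.23 rested on which array is read. Without HLX replicate 1 it was -0.44, and without HLX replicate 2 it was -0.022. Both Slamf1 and Esam had mean levels below the median of all probesets, 6.36, where RMA compresses differences.

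Procr, which binds protein C and marks the most primitive cells in the mouse, was at 6.72, 6.69 and 7.10 with HLX, against 6.99, 6.97 and 6.69 with control. The 6 values were interleaved, and the difference was -0.04 ± 0.15 with a fold interval of 0.76 to 1.23. F2r, the thrombin receptor through which the bound ligand can signal, differed by 0.0020 ± 0.10, and Proc, the gene of that ligand, by -0.07 ± 0.10.

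Endothelial cells also carry Esam, Procr and Cd34. Of 17 measured endothelial genes 1 was at an unadjusted p under 0.05, 5 were higher and 12 lower with HLX, and the median difference was -0.025. Their summed linear level was 1593 to 1667 in HLX arrays and 1715 to 1807 in control arrays, without overlap. Without Pecam1 the sums of the other 16 genes did overlap, at 1283 to 1360 in HLX arrays and 1353 to 1421 in control arrays. Pecam1, an adhesion molecule of endothelium that blood cells carry too, was the 1 gene at that p. Its log2 level was 8.28, 8.34 and 8.18 with HLX against 8.75, 8.46 and 8.59 with control. Without control replicate 1 the count at that p was 0, without control replicate 2 it was 2, and without HLX replicate 2 it was 3. All of these genes were lower with HLX. Cdh5, the cadherin that defines endothelium, had a mean below the median of all probesets. Emcn and Tek were also below it and differed by -0.78 ± 0.37 and -0.29 ± 0.17 (SE). Both belong as well to the wider list of stem and progenitor surface genes below, where Emcn was furthest from 0. Of the 17 genes 8 had a mean above it. The part of endothelial cells in the Esam values was not tested. Of 12 stromal genes 1 was higher and 1 lower at an unadjusted p under 0.05, Lum (0.28 ± 0.11, SE) and Fn1 (-0.36 ± 0.11).

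The 3 markers that gain weight in multipotent progenitors were each lower on average with HLX, and none was called. Cd27 was at 9.02, 8.82 and 8.80 in HLX arrays 1 to 3, against 9.04, 9.40 and 9.10 in control arrays 1 to 3. The groups did not overlap, but HLX replicate 1 and control replicate 1 were 1.01-fold apart. The difference was -0.30 ± 0.13 (SE, n = 3 per group), or 1.23-fold lower, with an unadjusted p from limma of 0.0520 and an adjusted p of 0.9999. The exact permutation test gave p = 0.1, 2-sided. Without control replicate 2 the difference was -0.19. Cd70, the ligand of CD27, had a mean level below the median of all probesets and differed by -0.09 ± 0.10.

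Cd34 was at 10.72, 11.36 and 11.02 with HLX, against 11.15, 11.26 and 11.21 with control. The control arrays lay within a narrow band, and the HLX arrays fell on both sides of it, so that the SD was 0.32 with HLX and 0.05 with control. The difference was -0.17 ± 0.16 (SE), with a fold interval of 0.68 to 1.16. Without HLX replicate 2 it was -0.34, and without HLX replicate 1 it was -0.015. Podxl, a sialomucin of the CD34 family, was at 0.49 ± 0.18 (SE), with HLX arrays above all control arrays.

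Cd48 was at 9.13, 8.41 and 8.89 with HLX, against 9.44, 8.69 and 8.58 with control. Replicate 1 was the highest array of each vector, and the spread within a vector exceeded the difference of -0.09 ± 0.27 (SE). Without control replicate 1 the difference was 0.17, that is, of the opposite sign. Cd244a, the receptor that CD48 engages, was lowest in HLX replicate 1 (6.65) and at 7.86 and 7.65 in the other HLX arrays, against 7.34, 7.99 and 7.81 in control arrays.

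Slamf1 and Cd48 belong to the SLAM family, a cluster of immune receptor genes. Of its other 7 genes, all measured, 2 were at an unadjusted p under 0.05 and both were lower with HLX, where 2.36% of all genes were. Ly9 (CD229), which is carried by multipotent progenitors and by part of the stem cells in the mouse, was at 7.01, 7.43 and 7.17 with HLX against 7.67, 7.81 and 7.52 with control. All HLX arrays lay below all control arrays, with a difference of -0.46 ± 0.14 (SE) and an adjusted p from limma of 0.932. Cd84 differed by -0.64 ± 0.21, with control replicate 3 close to the HLX arrays and the other 2 controls well above. Its mean level was below the median of all probesets. Among the 3 family genes above that median, 1 was lower at an unadjusted p under 0.05. With 1 array left out, 1 or 2 of the 7 genes were lower at an unadjusted p under 0.05. At that p 1 was higher without HLX replicate 1, without control replicate 3, after median centring and with the replicate number as a block. Without both arrays numbered 1 the count was 0 in either direction. Slamf9, a gene of myeloid cells, was at 0.70 ± 0.31, and the median of the 7 genes was -0.11.

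The Ly6 family, to which Ly6a belongs, gave no value that could stand in for it. Of 25 measured family genes 0 were at an unadjusted p under 0.05 (2 lower without HLX replicate 3, 1 higher without HLX replicate 1), and the median difference was 0.014. Ly6e, a close relative, was at 12.35, 12.21 and 12.24 with HLX and at 12.35, 12.26 and 12.35 with control. Ly6c1 and Ly6c2 share their probesets in the annotation and are not analysed here. Whether the Sca-1 transcript differed between the vectors was therefore not examined.

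A wider list of 45 measured surface genes of stem and progenitor cells held none of the 8 markers. Like the other lists, it was drawn up with earlier results of these data known. It had 2 genes higher and 3 lower with HLX at an unadjusted p under 0.05, or 11.1% of the list against 4.8% of all genes. Without HLX replicate 2 the count was 1 higher and 7 lower, without control replicate 2 it was 0 and 4, and with the replicate number as a block it was 5 and 3. The median difference of the list was -0.045. Cd93, a C-type lectin-like receptor of early progenitors, was at 8.87, 9.06 and 8.68 with HLX against 9.47, 9.58 and 9.47 with control. It was 1.55-fold lower (-0.63 ± 0.12, SE) without overlap, and its adjusted p from limma was 0.824. Flt3, whose protein separates lymphoid-primed progenitors from stem cells, was at 8.81, 8.57 and 8.19 with HLX against 9.12, 9.21 and 9.29 with control. Cd44, a hyaluronan receptor, was at -0.44 ± 0.16 and also did not overlap. The 2 higher genes were Podxl and Cd82, which is also counted among the tetraspanins above. In the list of ligands and partners of the marker proteins, 2 of 23 genes were at that p, Itgam and Itgb2 (0.71 ± 0.25), the subunits of an integrin that can bind human Thy1. Itgam belongs to 3 of the lists, among them that of mature myeloid genes, and Itgb2 to 1, that of ligands and partners.

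**Figure D3:**
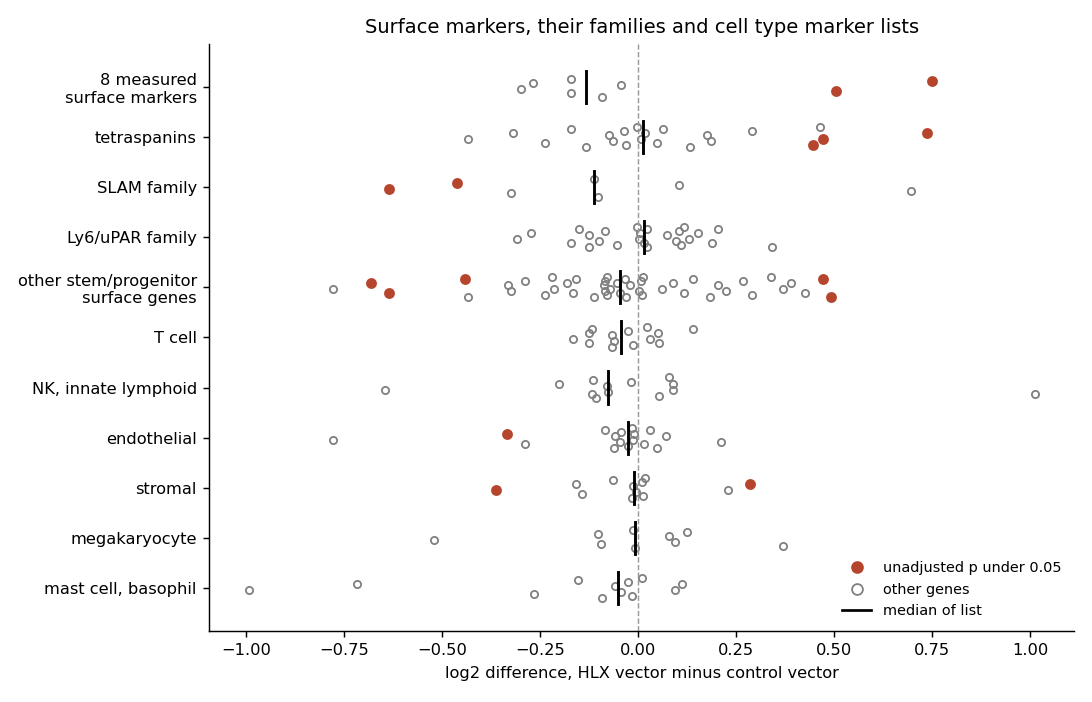
Log2 difference, HLX vector minus control vector, of the 8 measured markers, of their gene families and of cell type marker lists, with 1 point per gene. Filled points are genes at an unadjusted p under 0.05 from limma and black bars are the list medians. Thy1 and Cd9 are the filled points of the first line, and the T cell, NK and innate lymphoid, megakaryocyte and mast cell lines hold 0 filled points.

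Across arrays the markers followed different patterns. Cd9 and Cd27 ran opposite to each other: HLX replicates 2 and 3 had the 2 highest Cd9 levels and the 2 lowest Cd27 levels, and control replicate 2 had the lowest Cd9 and the highest Cd27. HLX replicate 1 was nearer to the controls than the other HLX arrays in both. Slamf1 shared part of the order of Cd27, since HLX replicates 2 and 3 were its lowest arrays too (Pearson r = 0.503 with Cd27 and -0.735 with Cd9). HLX replicate 1 was the highest array for Slamf1, which it was not for Cd9 or Cd27. Thy1 went with Cd9 (r = 0.762) and against Cd27 (r = -0.821).

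Cd9 and Cd27 lie on the same chromosome with 5 protein-coding genes between them in the RefSeq annotation of GRCm38.p6, which was used here for gene order and promoter sequence only. Their promoters, from 250 bases before to 50 after the start of transcription, are shown because these neighbours had opposite patterns in cells given a homeodomain factor. The pair was thus picked by its values. Capitals mark the 4-letter core TAAT of many homeodomain sites, searched on both strands, so that it may read as ATTA. The Cd9 window is chr6:125494711-125495010 and the Cd27 window chr6:125236978-125237277, both on the minus strand and written 5′ to 3′ along the gene.
Cd9: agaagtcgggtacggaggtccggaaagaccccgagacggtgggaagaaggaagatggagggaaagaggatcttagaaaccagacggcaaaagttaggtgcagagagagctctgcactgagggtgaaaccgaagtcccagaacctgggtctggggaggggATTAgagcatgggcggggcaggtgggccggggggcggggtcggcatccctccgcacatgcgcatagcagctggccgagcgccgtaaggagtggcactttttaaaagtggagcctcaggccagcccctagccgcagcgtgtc
Cd27: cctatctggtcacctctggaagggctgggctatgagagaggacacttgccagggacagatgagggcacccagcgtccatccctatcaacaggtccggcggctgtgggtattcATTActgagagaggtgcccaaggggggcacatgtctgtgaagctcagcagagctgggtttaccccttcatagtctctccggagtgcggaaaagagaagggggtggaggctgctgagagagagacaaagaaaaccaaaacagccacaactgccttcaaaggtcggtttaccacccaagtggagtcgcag
Each window held the core once. So did those of Slamf1 and Cd48, while those of Procr and Cd34 held 0, and for Thy1, Ly6a and Esam the table of sequences has no entry. Slamf1 and Cd48 are closer neighbours, with 1 protein-coding gene between them, and they varied together (Pearson r = 0.702). Of 32851 promoter windows of this length 58% held the core at least once. A match of 4 letters is common and describes the sequence alone, and no binding was measured in this series.

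The genes most like each marker over the 6 arrays were taken by Pearson r, as a description. Between 69 genes for Cd34 and 140 for Esam, of 17069 compared, had an r over 0.9, which is 0.404 to 0.82% of them. With so many genes compared over 6 arrays, unrelated genes can also reach a high r. Whether any gene below is related to its marker was not tested. Thy1 was most like Rbis (r = 0.991), a ribosome biogenesis factor, and Dpy30 (r = 0.989), a subunit of histone methyltransferase complexes. Cd9 was most like Mtch1 (r = 0.992), a mitochondrial carrier, and Gja10 (r = 0.991). Cd27 was most like Hoxa3 (r = 0.988), a homeobox gene, and Serpini1 (r = 0.986), and Esam was most like Tgfbr3 (r = 0.990), a TGF-beta coreceptor, and Ces2b (r = 0.989). Cd34 was followed by Fam234a (r = 0.999) and Adgrg3 (r = 0.993), Cd48 by Kyat3 (r = 0.993) and Dzip1 (r = 0.990), Slamf1 by Rab8b (r = 0.993) and Ssxa1 (r = 0.992) and Procr by Arhgap22 (r = 0.983) and Kcng1 (r = 0.982). None of the other markers was among these genes.

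**Figure D4:**
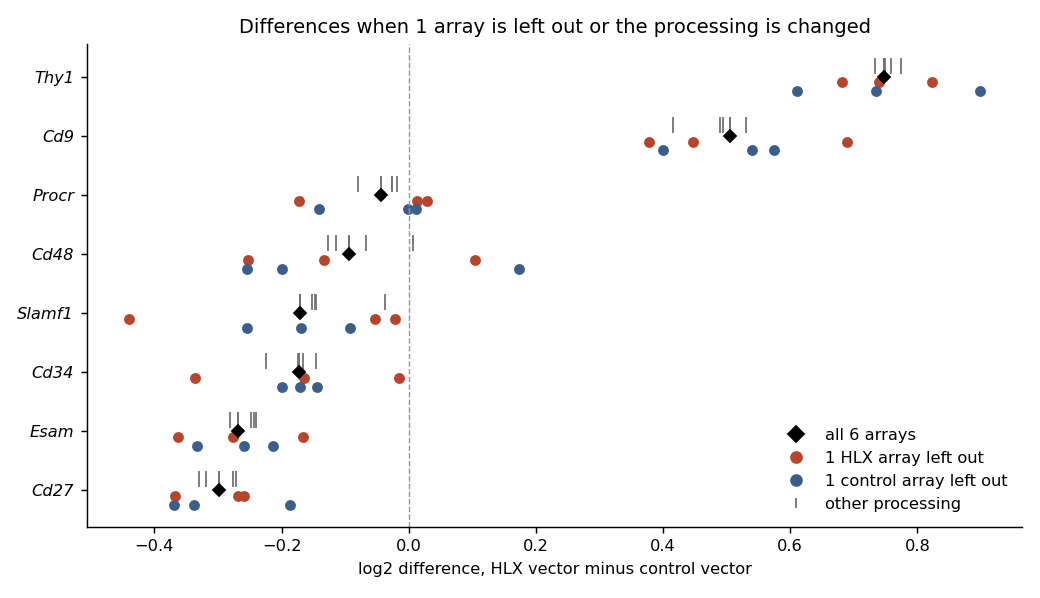
Log2 difference, HLX vector minus control vector, of each measured marker with all 6 arrays (diamond), with 1 HLX or 1 control array left out (points) and under other processing of the same arrays (ticks). Thy1 and Cd9 stay above 0 and Slamf1, Cd34, Esam and Cd27 below 0 in every fit drawn, while Procr and Cd48 lie on both sides.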

How the data were processed

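RNA of 3 HLX and 3 control vector samples (3 ng each, amplified) was hybridised to Affymetrix arrays. The deposited table holds a log2 level for each probeset on each array. Per the submitters' processing notes, the authors used RMA in Affymetrix Power Tools. RMA normalizes between arrays and compresses weak signals, so a change common to most transcripts is largely removed. The log2 scale was read from the values. Array medians were 6.32 to 6.40 and pairwise correlations 0.980 to 0.987. The number of arrays limits the precision.

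Of 35556 probesets, 21789 had 1 symbol in the platform annotation, 1621 had several and 12146 were unnamed. The probeset with the highest mean over 6 arrays was kept for each of 19938 genes, with no filter on dim probesets. The vectors were compared with limma 3.58.1 (lmFit, eBayes) in R 4.3.3 by a 2-sided test, and p-values were adjusted over all genes (Benjamini-Hochberg, threshold 0.05). SE and intervals are the moderated ones of eBayes. Linear levels are 2 raised to the log2 value. The code was tested on simulated data. Deviations of same-numbered arrays from their group means correlated at 0.200, 0.00854 and 0.143 for numbers 1 to 3, so the arrays were not treated as paired. Alternatives were filters, normalizations, priors, array weights, probeset choices, a replicate block and leaving out arrays.

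Named genes are the markers, Hlx, Kit, direct partners and close relatives fixed by name, up to 3 genes with the smallest p per list, the 2 genes most like each marker by Pearson r, and further list genes whose values bear on a marker. Those further genes (Cd3e, Cd3d, Cd3g, Lat, Pf4, Itga2b, Cdh5, Podxl and the lineage genes above the median) were named after values were seen. The markers and lists were chosen with earlier results of these data known.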

Additional observations from a re-analysis of the deposited data

How the results depend on the processing

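Of 134 values of the 8 markers under 17 alternatives, 126 kept their direction and none was called. Thy1 kept its direction and an unadjusted p under 0.05 in all 17. Part of this count was fixed in advance. Each marker had 1 probeset, so the probeset choices, the filter on dim genes, the prior and the replicate block could change only its p. Only the normalizations, the array weights and leaving out arrays could change a difference. Procr and Cd48 changed sign in 4 fits each. Procr was at 0.013 without HLX replicate 1, 0.028 without HLX replicate 2, 0.011 without control replicate 1 and 0.068 without both arrays numbered 1, and its leave-one-out range was -0.17 to 0.028. Cd48 was at 0.0061 with array weights, 0.10 without HLX replicate 2, 0.17 without control replicate 1 and 0.014 without both arrays numbered 1, with a leave-one-out range of -0.25 to 0.17. The median of the markers ran from -0.21 to 0.0028 with 1 array left out and was -0.014 without both arrays numbered 1. That last setting was chosen after seeing the data. The count of all genes called was 0, and 1 with a trended and robust prior. Genes at an unadjusted p under 0.05 numbered 958, 606 when dim genes were left out and 1573 over all probesets, where fewer and more features were tested. The replicate block gave 1205 such genes, 0 markers called and a Thy1 difference of 0.75 (adjusted p from limma 0.692). Same-numbered arrays correlated best with each other for numbers 1 and 3, and not for number 2. Slamf1 and Esam gave no value when dim genes were left out. The cause of these changes was not tested. With 3 arrays a group, the 95% intervals above are the limit on what could be seen.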

Other observations

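Mature myeloid genes differed in both directions. Of 16 measured genes 2 were higher and 1 lower with HLX at an unadjusted p under 0.05, which is 18.8% of the list against 4.8% of all genes, and 0 passed limma's adjusted threshold. With the replicate number as a block the count was 4 higher and 1 lower, and without control replicate 3 it was 3 and 0. Lyz2, the lysozyme of granulocytes and macrophages, had log2 levels of 7.63, 8.00 and 8.04 with HLX, against 7.12, 7.14 and 7.30 with control. Mpeg1, a pore-forming protein of macrophages, was at -0.58 ± 0.19 (SE, n = 3 per group). The summed linear level of the list overlapped, at 1650 to 1955 in HLX arrays and 1616 to 2067 in control arrays.

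Of 9 measured B cell genes 6 were lower with HLX, beside 10467 of all 19938 genes. At an unadjusted p under 0.05 stood 1 of the 9, or 11.1% against 4.8% of all genes, and 0 passed limma's adjusted threshold. Cd79b, a subunit of the B cell receptor, was that gene, at -0.63 ± 0.21 (SE, n = 3 per group). Vpreb1, a part of the pre-B cell receptor, was at -0.86 ± 0.45. The summed linear level of the list overlapped, at 588 to 768 in HLX arrays and 732 to 970 in control arrays.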
